A study of Rattus norvegicus with 8 samples.

Results

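The genes of the endocannabinoid system described here are 9 of the 17337 genes in the count data of rat striatum. They were taken by symbol: the receptor genes Cnr1 and Cnr2, the synthesis enzymes Dagla, Daglb and Napepld, and the breakdown enzymes Mgll, Abhd6, Abhd12 and Faah. All 9 were listed, and 8 passed the filter on low counts and were tested. Messenger RNA was sequenced from the striatum of 8 wild-type male Sprague-Dawley rats, 4 that self-administered methamphetamine (METH) and 4 that self-administered saline. METH was taken at 0.05 mg/kg per infusion in sessions of 2 h per day over 16 days, and the saline rats followed the same schedule. All rats had been trained to press a lever for food, carried a jugular catheter and were anesthetized with ketamine and xylazine before the brain was removed. Of 24 METH and 8 saline rats, 4 of each were selected because their lever pressing varied by less than 20% over the last 3 days. This selection is described for plasma sampling, and whether the same 8 rats were sequenced is not given in the sources used here. The animals' age and the time from the last session to tissue collection are not given in the sources used here.

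Endocannabinoids are lipid messengers made on demand from membrane lipids, mostly in the postsynaptic cell. They travel backward across the synapse to the CB1 receptor on axon terminals, where they reduce transmitter release. In the striatum, this loop acts on the glutamate inputs to the spiny projection neurons and on the output of those neurons, and CB1 is abundant in projection neurons themselves. The principal messengers are 2-arachidonoylglycerol (2-AG), made by diacylglycerol lipases and cleaved by monoacylglycerol lipase and the ABHD hydrolases, and anandamide, made in part by NAPE-PLD and cleaved by fatty acid amide hydrolase.

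Total counts ranged from 18135939 to 21211920 per rat. Values are given as CPM (counts scaled to library size and, by TMM, to library composition), and the difference between the groups as the log2 fold change of METH over saline from the edgeR quasi-likelihood test. Counts of any 2 rats within a group lay further apart than sampling alone gives (chi-square over its degrees of freedom, 10.1 to 27.6), and each rat was taken as 1 replicate. METH replicate 3 stood apart from the other 7 rats on the first principal component, which carried 26.4% of the variance, and values without it are given where they matter. The tissue label was checked with 10 markers of striatal projection neurons, all detected in every rat, which summed to between 14820 and 15666 CPM in saline rats and between 15701 and 19677 CPM in METH rats. The METH sums were thus all above the saline sums, and the highest was that of METH replicate 3. Taken singly, 7 of the 10 markers had a log2 fold change above 0 and 3 below 0. Markers of cortical projection neurons summed to 110.6 CPM in saline replicate 1 and to between 23.0 and 38.8 CPM in the other rats. The summed markers of interneurons, astrocytes, oligodendrocytes, microglia, endothelial cells and choroid plexus overlapped between the groups.

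None of the 8 tested genes was called. A call required an FDR under 0.05 and a mean log2 CPM over 1, which 0.516% of all 12014 genes tested met, 0.449% as higher and 0.0666% as lower in METH rats. DESeq2, limma-voom and the edgeR likelihood ratio test called 0 of the 8 as well. At an unadjusted p below 0.05, 3 of the 8 (Cnr1, Abhd6 and Abhd12) differed, all higher in METH rats, where 11.1% of all genes tested passed, 6.26% as higher and 4.88% as lower. The log2 fold change was above 0 for 5 of the 8 and below 0 for 3 (Cnr2, Mgll and Napepld), with a median of 0.06 against -0.01 over all genes tested, of which 48.6% were above 0. The groups did not overlap for 1 of the 8, Abhd12, and for 6.39% of all genes tested, 3.75% with METH higher and 2.65% with METH lower. In bulk tissue, fewer cells of a type and less RNA per cell cannot be told apart.

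**Figure D1:**
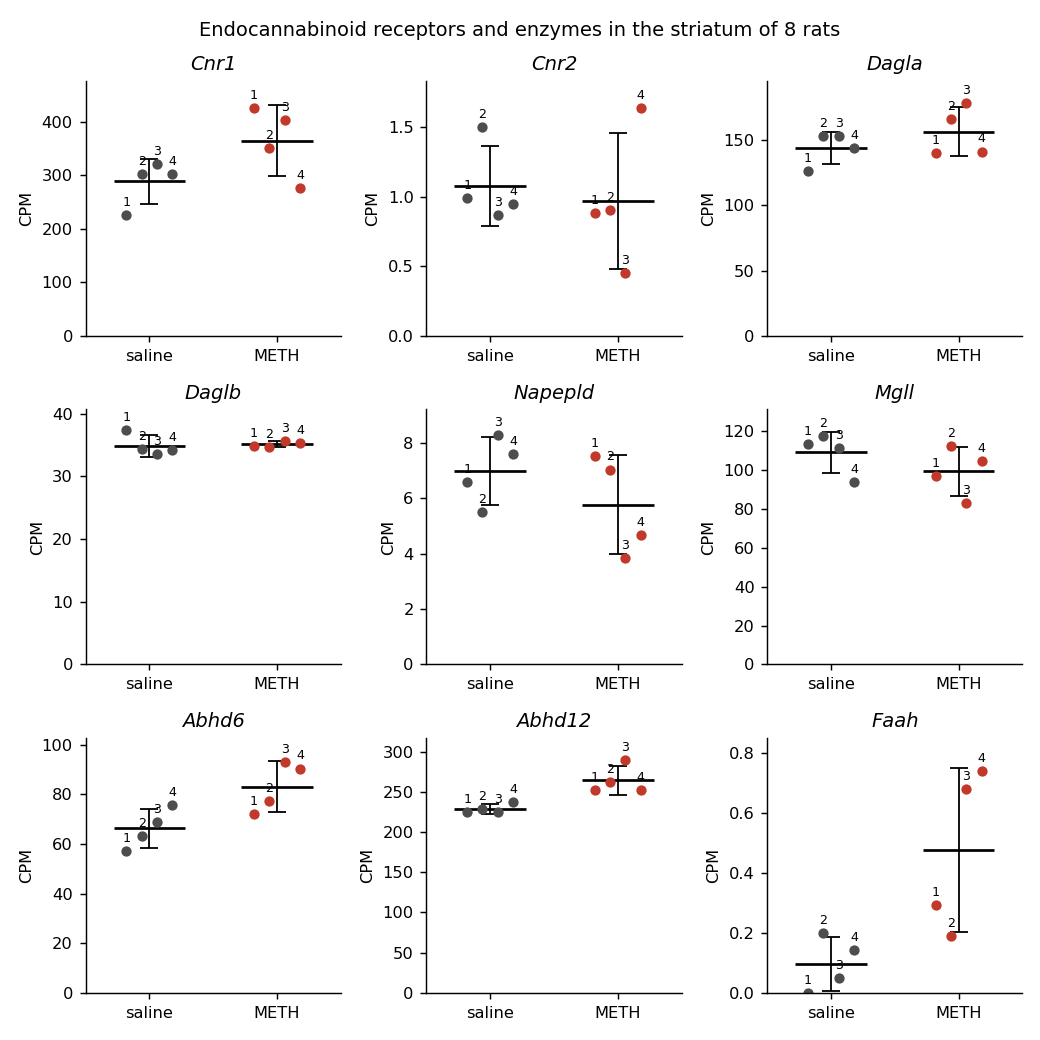
CPM of each endocannabinoid gene in each rat. Points are rats, numbered by replicate, horizontal lines are group means and error bars are SD (n = 4). Only Abhd12 has no METH rat within the range of the saline rats, and Faah lies below 1 CPM in every rat.

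Cnr1 encodes CB1, the main cannabinoid receptor of neurons. It was read 4123, 6052, 6650 and 6412 times in saline replicates 1 to 4 and 8696, 7362, 7140 and 5247 times in METH replicates 1 to 4. Scaled to library size, these counts were 226, 303, 321 and 303 CPM in saline rats and 426, 350.4, 403 and 277 CPM in METH rats. METH replicates 1, 2 and 3 were above every saline rat, whereas METH replicate 4 was below 3 of the 4 saline rats, so the groups overlapped. The mean was 288 ± 42.2 CPM (SD, n = 4) under saline and 364 ± 66.2 CPM (SD, n = 4) in METH rats. For Cnr1, METH over saline was 0.34 on the log2 scale (standard error 0.13), or 1.26-fold with a 95% interval from 1.04 to 1.54. The quasi-likelihood test gave an unadjusted p of 0.0246 and an FDR of 0.379. An exact permutation test over the 70 ways to label 4 of 8 rats gave a two-sided p of 0.171. Leaving out any of 3 rats ended the unadjusted p below 0.05: it was 0.0815 without saline replicate 1 (log2 fold change 0.24), 0.0894 without METH replicate 1 (0.25) and 0.0677 without METH replicate 3 (0.28). Saline replicate 1, the lowest for Cnr1, was also the rat with the highest sum of cortical projection neuron markers. Of those 8 markers, 4 passed the filter on low counts. The same rat had the highest sum of interneuron markers, 469 CPM against 343 to 422 CPM in the other rats. The part of either cell type in the Cnr1 value was not tested. The dispersion of Cnr1 between rats of a group was higher than that of 96.3% of the 1000 tested genes nearest to it in level.

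Cnr2 encodes CB2, a receptor best known from immune cells. Saline replicates 1 to 4 had 18, 30, 18 and 20 counts, and METH replicates 1 to 4 had 18, 19, 8 and 31, or between 0.452 and 1.63 CPM over all rats. The METH rats held both the lowest and the highest value, so the saline range lay inside theirs. For Cnr2 the log2 fold change was -0.15 with a 95% interval from -1.09 to 0.79 (FDR = 0.930, quasi-likelihood test), an interval too wide to show a difference of the size seen for Abhd6 at this depth. With a mean log2 CPM of 0.17, Cnr2 lay under the level required for a call. Markers of microglia, the immune cells of the brain, summed to between 486 and 564 CPM in saline rats and between 443 and 535 CPM in METH rats. Of those 10 markers, 1 was called, the chemokine receptor gene Cx3cr1, with a log2 fold change of -0.73 and a standard error of 0.14 (FDR = 0.0408). That call was lost without saline replicate 2, 3 or 4 or METH replicate 1, 3 or 4, where the FDR of Cx3cr1 lay between 0.0569 and 0.144 and its log2 fold change between -0.78 and -0.61. The part of microglia in the Cnr2 value was not tested.

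Dagla encodes the diacylglycerol lipase that makes most of the 2-AG used at brain synapses. Its level in saline replicates 1 to 4 was 126, 153, 152 and 143 CPM, and in METH replicates 1 to 4 it was 139.9, 166, 178 and 141 CPM. METH replicates 2 and 3 were the highest of all rats, and the other METH rats lay within the saline range. The mean was 144 ± 12.5 CPM (SD, n = 4) under saline and 156 ± 18.7 CPM (SD, n = 4) in METH rats. Dagla differed by 0.12 on the log2 scale with a 95% interval from -0.09 to 0.33 (FDR = 0.659, quasi-likelihood test). Without METH replicate 3 the value was 0.05, and without saline replicate 1 it was 0.06.

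Daglb encodes the second diacylglycerol lipase, which is known to supply 2-AG in microglia and other cells. Its 8 values lay close together, at 37.4, 34.3, 33.6 and 34.3 CPM in saline rats and 34.8, 34.7, 35.6 and 35.3 CPM in METH rats. All 4 METH rats lay inside the saline range. The dispersion of Daglb was higher than that of only 1.5% of the 1000 tested genes nearest in level. Daglb differed by 0.01 on the log2 scale with a 95% interval from -0.17 to 0.18 (FDR = 0.981, quasi-likelihood test), or between 0.891 and 1.14 times the saline level. Under total-count scaling its sign turned, to -0.03.

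Napepld encodes NAPE-PLD, an enzyme of anandamide synthesis. It was at 6.59, 5.50, 8.31 and 7.61 CPM in saline rats and at 7.54, 7.04, 3.84 and 4.69 CPM in METH rats, from 68 to 172 counts. METH replicates 3 and 4 were below every saline rat, and METH replicates 1 and 2 were within the saline range. For Napepld the log2 fold change was -0.27 with a 95% interval from -0.78 to 0.23 (FDR = 0.675, quasi-likelihood test). It was -0.12 without METH replicate 3 and -0.43 without METH replicate 1.

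Faah encodes fatty acid amide hydrolase, the principal enzyme of anandamide breakdown. Its row held 0, 4, 1 and 3 counts in saline rats and 6, 4, 12 and 14 counts in METH rats, and the low-count filter removed it. The sums were 8 and 36 counts, and 3 counts, the number taken as the limit of detection, corresponded to between 0.142 and 0.169 CPM. METH replicates 3 and 4 held most of the counts, and METH replicate 2 equalled saline replicate 2 in counts. When the low-count filter was dropped, Faah had a log2 fold change of 2.18 with a 95% interval from 0.40 to 3.97. The edgeR quasi-likelihood test gave an unadjusted p of 0.0198 and an FDR of 0.388. In that fit, 4 of the 9 genes were below 0.05 unadjusted, Faah besides Cnr1, Abhd6 and Abhd12. The exact permutation test gave a two-sided p of 0.0571. A fold change from so few counts depends on single reads and carries little precision. The gene model to which Faah reads were assigned is not given in the sources used here, and its part in this level was not tested.

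**Figure D2:**
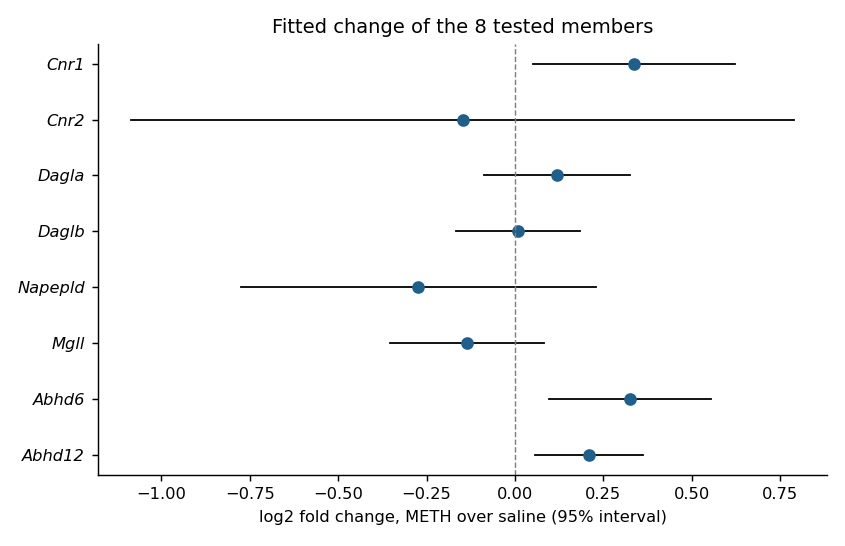
Log2 fold change of METH over saline for the 8 tested genes, with points for the fitted value and lines for its 95% interval. The intervals of Cnr1, Abhd6 and Abhd12 lie above 0 before adjustment for the number of genes tested, and the interval of Cnr2 is the widest.

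Mgll encodes monoacylglycerol lipase, the enzyme that cleaves most 2-AG in brain, and is made in neurons and astrocytes. It was at 114, 118, 111 and 94.0 CPM in saline rats and at 96.8, 113, 83.2 and 105 CPM in METH rats. METH replicate 3 was the lowest rat and the other METH rats lay within the saline range. The mean was 109 ± 10.5 CPM (SD, n = 4) under saline and 99.4 ± 12.6 CPM (SD, n = 4) in METH rats. Mgll stood at -0.14 on the log2 scale with a 95% interval from -0.35 to 0.08 (FDR = 0.632, quasi-likelihood test), and it was -0.06 without METH replicate 3. Astrocyte markers summed to between 3603 and 4260 CPM in saline rats and between 3613 and 4478 CPM in METH rats, 10 of 10 being detected in every rat.

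Abhd6 encodes a membrane-bound hydrolase that cleaves 2-AG in the postsynaptic cell, near the site where it is made. Saline replicates 1 to 4 had 1041, 1267, 1423 and 1605 counts, and METH replicates 1 to 4 had 1468, 1622, 1645 and 1714. In CPM these were 57.1, 63.3, 68.7 and 75.8 in saline rats and 71.9, 77.2, 92.9 and 90.4 in METH rats. The groups overlapped in 1 place, where saline replicate 4 was above METH replicate 1. The mean was 66.3 ± 7.95 CPM (SD, n = 4) under saline and 83.1 ± 10.2 CPM (SD, n = 4) in METH rats. Abhd6 was thus 0.33 higher on the log2 scale (standard error 0.11), or 1.25-fold with a 95% interval from 1.07 to 1.47. Its quasi-likelihood p was 0.00911 unadjusted, with an FDR of 0.281. In the exact permutation test the two-sided p was 0.0571. Leaving out 1 rat at a time kept the Abhd6 value between 0.26 and 0.40.

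Abhd12 encodes the third 2-AG hydrolase, which also cleaves lysophosphatidylserine and is well represented in microglia. It was read 4095, 4565, 4646 and 5019 times in saline rats and 5157, 5506, 5135 and 4785 times in METH rats. In CPM, Abhd12 was at 225, 228, 224 and 237 in saline rats and at 252, 262, 290.0 and 252 in METH rats. Every METH rat was above every saline rat, a separation in that direction shared by 3.75% of all genes tested. The mean was 229 ± 5.94 CPM (SD, n = 4) under saline and 264 ± 17.8 CPM (SD, n = 4) in METH rats. For Abhd12 the log2 fold change was 0.21 (standard error 0.07), or 1.16-fold with a 95% interval from 1.04 to 1.28. Its unadjusted p was 0.0113 and its FDR 0.298 in the quasi-likelihood test, and the exact permutation p of 0.0286 (two-sided) is the smallest that 4 rats against 4 allow. Without METH replicate 3, the highest rat, the log2 fold change was 0.16 with an unadjusted p of 0.0278 by the same model.

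**Figure D3:**
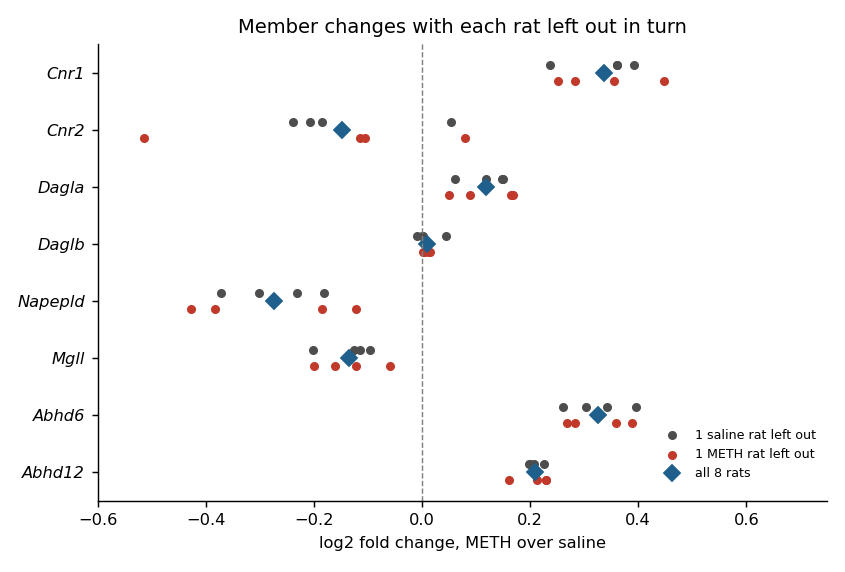
Log2 fold change of METH over saline for the 8 tested genes with all 8 rats (diamonds) and with each saline rat (grey) or METH rat (red) left out. Abhd6 stays between 0.26 and 0.40 and Abhd12 between 0.16 and 0.23, whereas Cnr2 and Daglb cross 0.

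The upstream sequences of the 3 hydrolases of 2-AG are shown because 2 of these genes, Abhd6 and Abhd12, lay higher in METH rats at the unadjusted threshold and Mgll did not. Each is the 250 bases before the gene start in RefSeq (build GRCr8, whereas the reads were counted on rn6), 5′ to 3′ on the gene's strand. Capitals mark the letters of the CCAAT motif or of its reverse complement, ATTGG. Whether these letters act as promoter elements was not tested. Mgll is at chr4:122749186-122749435 on the plus strand, Abhd6 at chr15:19337194-19337443 on the minus strand and Abhd12 at chr3:160179930-160180179 on the minus strand.
Mgll: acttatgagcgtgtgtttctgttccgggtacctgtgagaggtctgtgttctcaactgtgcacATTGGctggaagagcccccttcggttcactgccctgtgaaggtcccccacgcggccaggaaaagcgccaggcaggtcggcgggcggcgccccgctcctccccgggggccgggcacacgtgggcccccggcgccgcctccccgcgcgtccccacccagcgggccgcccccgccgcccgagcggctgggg
Abhd6: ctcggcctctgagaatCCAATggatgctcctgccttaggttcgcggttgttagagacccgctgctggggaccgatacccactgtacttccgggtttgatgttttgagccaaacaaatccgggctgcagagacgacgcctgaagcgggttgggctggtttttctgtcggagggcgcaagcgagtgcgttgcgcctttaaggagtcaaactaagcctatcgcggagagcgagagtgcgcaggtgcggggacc
Abhd12: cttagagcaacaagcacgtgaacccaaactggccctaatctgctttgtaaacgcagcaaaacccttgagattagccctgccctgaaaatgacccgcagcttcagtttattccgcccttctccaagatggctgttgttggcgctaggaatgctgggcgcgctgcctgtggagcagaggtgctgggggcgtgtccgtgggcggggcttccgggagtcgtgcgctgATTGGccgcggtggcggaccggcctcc
The letters CCAAT, or ATTGG on the other strand, occurred once in each of the 3, with the first base at position -188 in Mgll, -234 in Abhd6 and -27 in Abhd12, counted back from the gene start. They occurred in 3 of the 7 genes with a promoter entry, these 3 and not Cnr2, Daglb, Faah or Napepld, and in 34.0% of all 33469 promoters of that length. The cAMP response element TGACGTCA, its 5-letter part TGACG and the EGR motif GCGTGGGCG, each searched on both strands, were in none of the 3. The share of all promoters that held them was 1.59%, 18.2% and 0.478%, and every full element also counts as its part. The G and C content was 72.4% in Mgll, 58.4% in Abhd6 and 60.4% in Abhd12, against a median of 51.2% over all promoters. Of the 9 genes, 7 had an entry in the promoter table; Cnr1 and Dagla had none.

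Ratios within a library do not depend on how libraries are scaled to each other. Their size reflects transcript length as well as abundance, so only differences between rats are read from them. For each read of Mgll, saline replicates 1 to 4 had 1.11, 1.30, 1.37 and 1.53 reads of Dagla, and METH replicates 1 to 4 had 1.44, 1.47, 2.14 and 1.34. METH replicate 3 had the highest ratio of Dagla to Mgll reads, and the other 3 METH rats lay within the saline range. Of the reads on the 3 hydrolases of 2-AG, Mgll took 28.7%, 28.8%, 27.5% and 23.1% in saline rats and 23.0%, 24.9%, 17.8% and 23.4% in METH rats. The mean share of Mgll was 27.0% ± 2.69 (SD, n = 4) in saline rats and 22.3% ± 3.08 (SD, n = 4) in METH rats. The groups overlapped through saline replicate 4, which was below METH replicates 2 and 4.

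The summed projection neuron markers were higher in METH rats. The margin was narrow between METH replicate 4 (15701 CPM) and saline replicate 4 (15666 CPM), and the sum weighs each marker by its level. The 3 genes that passed the unadjusted threshold were also set against these markers, a comparison chosen after the values were seen. Drd2, 1 of these markers, is also among the wider pathway genes. Per 1000 reads of the 10 markers, Abhd12 had 14.7, 15.4, 14.4 and 15.1 reads in saline rats and 15.3, 15.5, 14.7 and 16.1 reads in METH rats. On that scale, the METH and saline rats overlapped for Abhd12. Cnr1 had 14.8, 20.4, 20.7 and 19.3 reads per 1000 marker reads in saline rats and 25.7, 20.7, 20.5 and 17.6 in METH rats. Abhd6 had 3.72, 4.27, 4.43 and 4.84 in saline rats and 4.34, 4.56, 4.72 and 5.75 in METH rats. Both genes overlapped between the groups on this scale as they did in CPM. Of the 10 markers, 7 had a log2 fold change above 0 and 3 below 0. None was called, and 3 were higher at an unadjusted p below 0.05. Over all genes tested, 0.516% were called and 6.26% were higher at that unadjusted threshold. Whether the share of projection neurons in the tissue differed, or the markers changed within those cells, was not tested. A ratio to markers that differ between the groups cannot tell these apart.

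**Figure D4:**
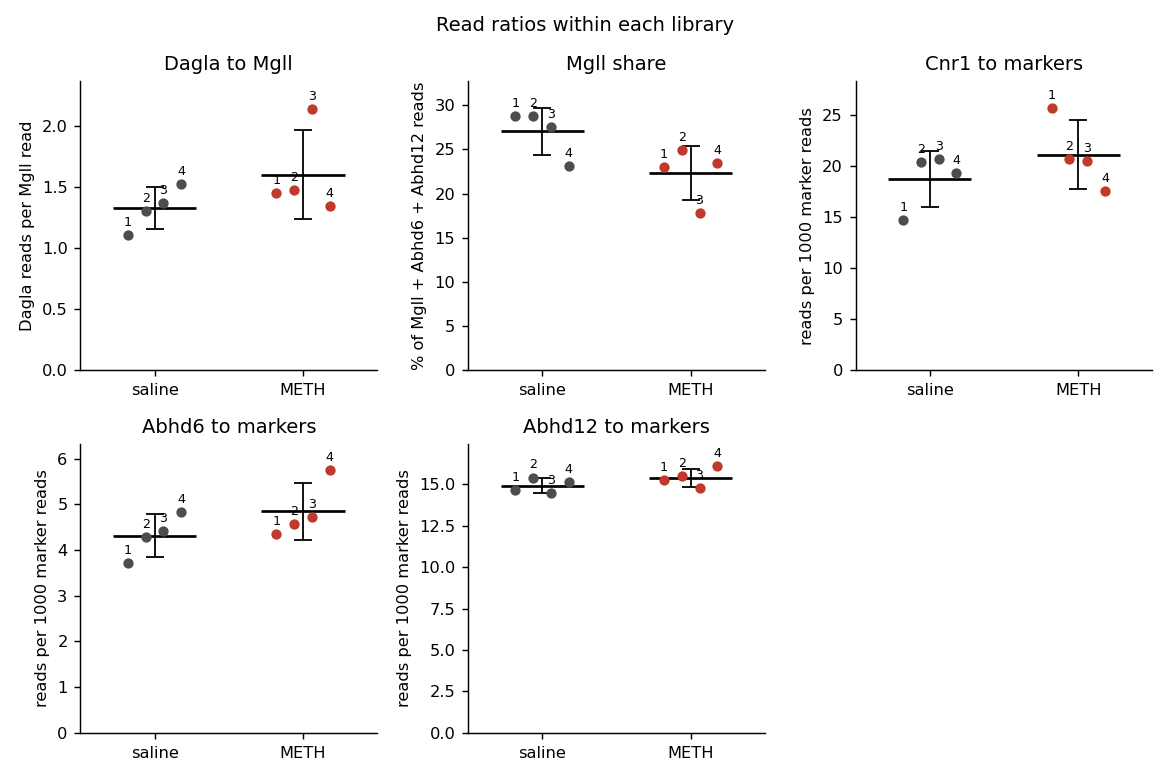
Read ratios within each library, with rats as numbered points, group means as lines and SD as error bars (n = 4). The top row shows Dagla reads per Mgll read, the share of Mgll among the 2-AG hydrolase reads and Cnr1 reads per 1000 projection neuron marker reads, and the bottom row shows Abhd6 and Abhd12 against the same markers. The groups overlap in all 5 panels.

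For each tested gene, the genes most alike in pattern were taken as those with the highest Pearson r of log2 CPM over the 8 rats, as a description and out of 12014 genes. The closest to Cnr1 were Herpud1 (r = 0.93, Spearman's rho = 0.79) and Fgfr3 (r = 0.92, rho = 0.98), the latter an astrocyte marker. Abhd6 was closest to Zdhhc2 (r = 0.98, rho = 0.98) and Tufm (r = 0.97, rho = 0.95). Abhd12 was closest to Fam212b (r = 0.98, rho = 0.93) and Lrrc73 (r = 0.98, rho = 0.98). Mgll was closest to Rnf128 and Ebi3, Dagla to Ttyh3 and Anks1a, Daglb to Sqstm1 and Kcnmb4, Napepld to Scaf11 and Rab2b, and Cnr2 to Wdr44 and Myo1g. For these 5 genes every r was 0.94 or above, and all values share the depth and composition of the same 8 libraries.

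Beyond the 9 genes, 83 symbols of the wider pathway were listed, of which 74 were in the count data and 66 were tested. Only 1 of the 66 was called, Ptgs2, which encodes cyclooxygenase-2, an enzyme that oxygenates 2-AG and anandamide besides arachidonic acid and is induced by neuronal activity. Ptgs2 had 104, 120, 105 and 121 counts in saline rats and 209, 225, 211 and 231 in METH rats. Every METH rat was above every saline rat, as for 3.75% of all genes tested. The mean level rose from 5.62 ± 0.392 CPM (SD, n = 4) under saline to a METH mean of 11.3 ± 0.938 CPM (SD, n = 4). On the log2 scale this was 1.00 with a standard error of 0.15 (quasi-likelihood FDR = 0.00549), and it stayed between 0.95 and 1.04 with each rat left out. At an unadjusted p below 0.05, 3 of the 66 were higher and 3 lower, or 6 beside the 11.1% of all genes tested given above. Without METH replicate 3, Ptgs2 was the only gene of the 66 at that threshold.

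The 15 genes that act ahead of 2-AG synthesis, among them the group I glutamate receptors and the phospholipase C enzymes that supply its precursor, had a median log2 fold change of -0.06 and none was called. Plcb4, a phospholipase C, was lower at -0.31 and Drd2, the dopamine D2 receptor gene, higher at 0.19, and neither was called (FDR = 0.373 and 0.421, quasi-likelihood test). Of the 11 other synthesis enzymes tested, none was called and Gdpd1, which makes N-acylethanolamines by another route, stood at -0.21 (FDR = 0.398, same test). Among the 5 other receptors for these lipids that were tested, the nuclear receptor gene Ppard was at 30.6, 33.3, 28.7 and 31.6 CPM in saline rats and at 35.7, 36.3, 47.7 and 33.7 CPM in METH rats. Every METH rat lay above every saline rat, as for 3.75% of all genes tested. The difference was 0.30 on the log2 scale (FDR = 0.347, quasi-likelihood test), and 0.18 without METH replicate 3. Of the 24 genes for CB1 partners and coupling, 0 were called, 6 were above 0 and 18 below 0, with a median of -0.03. Over all 66 wider genes, 22 were above 0 and 44 below, also with a median of -0.03. Of all genes tested, 48.6% were above 0. Gnai1, an inhibitory G protein subunit through which CB1 signals, stood at -0.30 on the log2 scale (quasi-likelihood FDR = 0.373) and was lowest in METH replicate 3, without which it stood at -0.20. The CB1-binding protein gene Cnrip1 was at -0.01 and the adenylyl cyclase gene Adcy5, the main form in striatum, at -0.02.

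**Figure D5:**
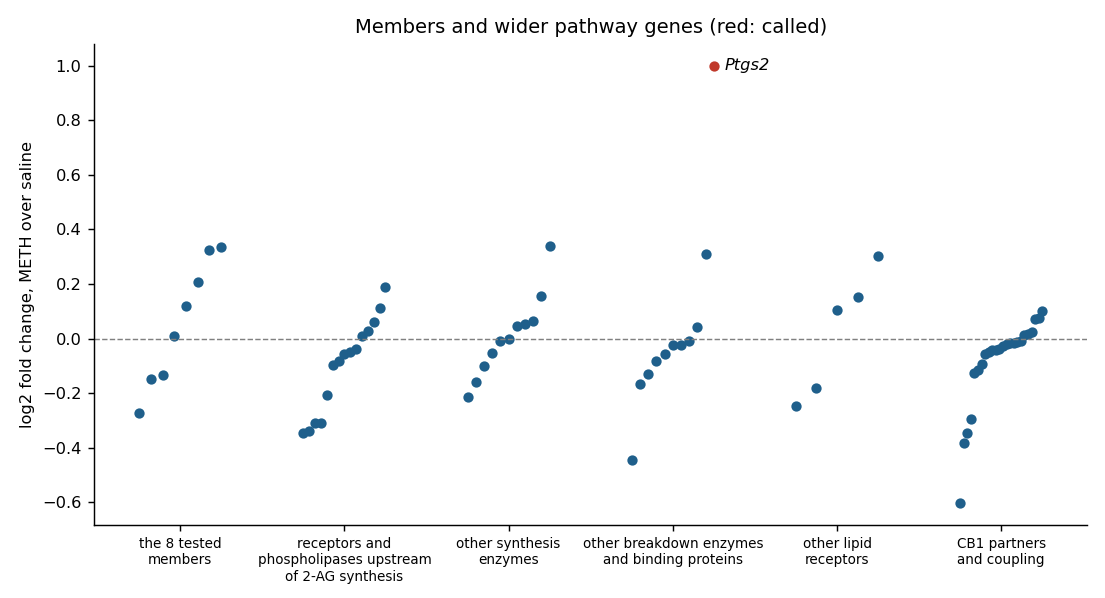
Log2 fold change of METH over saline for the 8 tested endocannabinoid genes and the 66 tested genes of the wider pathway, 1 point per gene, sorted within each group. Ptgs2 (red) is the only gene called, and all other points lie between -0.60 and 0.34.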

How the data were processed

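Polyadenylated RNA from the striatum of 8 rats was sequenced as paired-end reads (TruSeq RNA kit v2). Per the labels and methods, adapters were removed with Cutadapt 1.18 and STAR 2.7.0e placed the reads on rn6. The authors deposited raw counts per gene from featureCounts (Subread 1.6.4), 1 column per rat. The annotation, the strand setting and the treatment of multi-mapping reads are not given in the sources used here. In RefSeq (GRCr8), the spans of Cnr1, Mgll and Abhd12 overlap those of non-coding genes, for Mgll a tRNA. Whether their exons overlap, and whether reads were mixed, was not tested.

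Columns were assigned to rats by group and number. Genes were filtered with filterByExpr (minimum count 10), normalized by TMM (factors 0.956 to 1.018) and tested over all 8 rats with the quasi-likelihood F-test of edgeR 4.0.16 (R 4.3.3) and Benjamini-Hochberg adjustment. A prior count of 2 entered log2 CPM. Standard errors are the log2 fold change divided by the square root of F, and 95% intervals use the moderated degrees of freedom. Alternatives used DESeq2 1.42.0, limma-voom (limma 3.58.1), the likelihood ratio test, RLE and total-count scaling, no filter, no minimum level, a replicate block and each rat left out. On simulated counts for 11940 genes, the fit called 170 of 200 genes that were altered by 1 on the log2 scale, and 3 unaltered ones. Smaller changes, of the size fitted for the 8 tested genes, were not simulated, so their rate of recovery is not known.

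The 9 genes and the lists were chosen with earlier results of these data known. Named from the wider lists are the called gene and up to 10 genes with the lowest unadjusted p below 0.05, besides Cnrip1 and Adcy5, named after their values were seen; of markers, those called. Total counts per rat limit the precision of low genes, and limits taken from counts cover counting error only. The labels do not tie rats to litters or batches.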

Additional observations from a re-analysis of the deposited data

Results flagged for a closer look

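The Cnr1 level of saline replicate 1 lay far from those of the other saline rats: on the log2 CPM scale its gap to the nearest of them was 0.8293 of the range of the group, just past Dixon's 95% value for 4 rats. It was the only one of 22 groups scanned, and chance flags about 1 in 20. Without this rat the log2 fold change of Cnr1 was 0.24 in place of 0.34.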

How the results depend on the processing

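No alternative called any of the 9 genes, and the sign of Cnr1, Dagla, Mgll, Napepld, Abhd6 and Abhd12 was the same under all 15. The only alternative chosen after the data were seen was the unfiltered fit as the source of the Faah value. The number of genes called over the whole table was 62, and it became 191 with DESeq2, 170 with the likelihood ratio test and 37 with the replicate block; the cause was not tested. Leaving out 1 rat at a time gave from 37 (without saline replicate 2) to 70, the 9 genes at an unadjusted p below 0.05 from 2 to 3, the wider genes called from 1 to 1 and the wider genes at an unadjusted p below 0.05 from 1 (without METH replicate 3) to 8. Rats of the same number in the 2 groups are different animals, and their deviations from the group means had a mean correlation of -0.09. With the replicate block, 0 wider genes were called, since the FDR of Ptgs2 was 0.0554 at a log2 fold change of 1.00, 2 were at an unadjusted p below 0.05, and Cnr1, Abhd6 and Abhd12 stayed below 0.05 unadjusted. The marker Cx3cr1 also lost its call with the block (log2 fold change -0.74, FDR = 0.114). The sign turned for Daglb under total-count scaling (-0.0266) and without saline replicate 3 (-0.0099) or 4 (-0.0001), with values from -0.0099 to 0.0446 over the rats left out, and for Cnr2 without saline replicate 2 (0.0546) or METH replicate 3 (0.0798), with -0.51 to 0.0798 over the rats left out. Total-count scaling moved the median log2 fold change of all genes from -0.01 to -0.04. Precision is limited for Faah and Cnr2, with at most 14 and 31 counts in a rat.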
